A study of Mus musculus with 12 samples.

Results

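Trem2, Gpnmb, Cd9, Fabp5, Lgals3, Itgax, Cd63, Atp6v0d2, Cd68 and Slamf9 are genes used to mark scar-associated and lipid-associated macrophages. They were taken as a list of 10 named genes, each read by its brightest probe, out of 31870 gene symbols and identifiers on the array. All 10 were among the 19531 genes tested, a set limited to genes that were well above background on 3 or more arrays. Gpnmb met that condition through the arrays of ligated livers only.

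The livers came from 12 mice, 1 array each, in 4 groups of 3. FSAP-/- mice lack factor VII-activating protease, the product of Habp2, a circulating serine protease made mainly by hepatocytes. They were compared with FSAP+/+ (WT) littermates born to heterozygous parents, all from a stock crossed to BalbC up to generation F3 and aged 20 to 30 weeks. Bile duct ligation (BDL) closes the common bile duct and leads to cholestasis and biliary scarring, sham mice had the operation without the ligature, and livers were frozen 2 weeks later. The groups are therefore WT sham, WT BDL, FSAP-deficient sham and FSAP-deficient BDL. The labels used here give neither the sex of the mice nor the deleted part of Habp2, a cross to F3 leaves a mixed genetic background, and whole liver was used with no sorting of cells.

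Macrophages that gather in the scars of injured liver, and those that take up lipid in fatty liver or adipose tissue, carry a shared set of transcripts. Trem2 is a surface receptor that binds lipids and lipoproteins and signals through the adaptor Tyrobp (DAP12). Most of the other genes encode proteins of lysosomes and late endosomes (Cd68, Cd63, Gpnmb, Atp6v0d2), of lipid handling (Fabp5), of the cell surface (Cd9, Itgax, Slamf9), or secreted galectin-3 (Lgals3). Cd9, Cd63, Fabp5 and Lgals3 are also made by many cells that are not macrophages, biliary epithelium among them. In RNA from whole liver, more cells of a type and more RNA per cell cannot be told apart.

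The reference held promoters for 8 of the 10 genes, not for Fabp5 and Atp6v0d2. A promoter here is 250 bases before and 50 bases after the annotated start, from RefSeq on GRCm38.p6. The promoters of 5 genes that rose after ligation in both genotypes are shown. Each holds the letters of AP-1, PU.1 or both, motifs bound by factors that act in macrophages. Cd63 also rose in both and holds PU.1 letters, but its promoter is not shown. Cd9 and Lgals3, not shown either, rose in both and hold neither motif. Capitals mark AP-1 (TGANTCA, the same on both strands) and PU.1 (GAGGAA, or TTCCTC on the other strand). The motifs were chosen with these sequences in view, and no marked match overlaps another. The windows are chr17:48346151-48346450 on the plus strand for Trem2, chr6:49036268-49036567 on the plus strand for Gpnmb, chr7:128129300-128129599 on the plus strand for Itgax, chr11:69666121-69666420 on the minus strand for Cd68, and chr1:172475110-172475409 on the plus strand for Slamf9.
Trem2: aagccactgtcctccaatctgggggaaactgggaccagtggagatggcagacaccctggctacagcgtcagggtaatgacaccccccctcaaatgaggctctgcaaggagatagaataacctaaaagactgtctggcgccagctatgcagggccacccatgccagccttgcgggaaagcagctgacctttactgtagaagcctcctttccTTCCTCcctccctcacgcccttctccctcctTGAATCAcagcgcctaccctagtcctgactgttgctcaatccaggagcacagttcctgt
Gpnmb: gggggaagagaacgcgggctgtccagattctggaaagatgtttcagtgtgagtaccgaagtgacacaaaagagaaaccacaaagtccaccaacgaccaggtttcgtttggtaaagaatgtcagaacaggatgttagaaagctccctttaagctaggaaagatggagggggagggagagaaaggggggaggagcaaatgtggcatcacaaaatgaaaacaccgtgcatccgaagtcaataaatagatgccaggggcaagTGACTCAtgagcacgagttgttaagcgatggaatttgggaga
Itgax: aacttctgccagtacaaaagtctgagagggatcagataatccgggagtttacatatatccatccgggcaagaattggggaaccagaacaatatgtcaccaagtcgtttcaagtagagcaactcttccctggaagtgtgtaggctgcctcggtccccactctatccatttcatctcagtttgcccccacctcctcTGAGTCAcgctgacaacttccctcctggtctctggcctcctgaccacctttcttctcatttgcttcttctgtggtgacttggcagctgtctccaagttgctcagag
Cd68: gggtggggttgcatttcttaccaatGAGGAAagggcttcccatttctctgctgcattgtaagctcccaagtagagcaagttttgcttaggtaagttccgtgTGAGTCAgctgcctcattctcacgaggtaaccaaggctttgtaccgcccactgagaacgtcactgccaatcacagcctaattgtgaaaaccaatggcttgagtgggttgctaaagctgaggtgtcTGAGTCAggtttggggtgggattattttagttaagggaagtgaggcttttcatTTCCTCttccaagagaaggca
Slamf9: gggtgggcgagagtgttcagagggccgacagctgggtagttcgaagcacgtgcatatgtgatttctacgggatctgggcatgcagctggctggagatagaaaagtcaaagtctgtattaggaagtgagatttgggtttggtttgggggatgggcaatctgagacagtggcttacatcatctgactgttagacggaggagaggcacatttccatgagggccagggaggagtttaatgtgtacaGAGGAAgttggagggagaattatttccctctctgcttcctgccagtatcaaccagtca
The AP-1 letters stood in 4 of the 8 promoters, those of Trem2, Gpnmb, Itgax and Cd68, against 7.81% of 32851 promoters of the same length. In Cd68 they stood at 2 places, with first bases at -149 and -24 from the start, and in Trem2 at -9, in Gpnmb at 9 and in Itgax at -56. The PU.1 letters stood in 4 of the 8, those of Trem2, Cd63, Cd68 and Slamf9, against 28.3% of all promoters. The last motif searched, TCANGTG of the MiT/TFE factors (CACNTGA on the other strand), was present in 1 of the 8, Lgals3, against 14.3%. A match of letters is a description and shows no binding.

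Levels below are log2 of the processed signal minus the array's 75th percentile, so 0 is that percentile, and values compare arrays for 1 probe and not genes with each other. A change is a difference of such levels from 1 limma model over all 12 arrays, with its standard error (SE) and a Benjamini-Hochberg adjusted p over 19531 genes. "Rose" and "fell" are used for an adjusted p under 0.05. Habp2 read 4.97 to 5.50 on the 6 WT arrays, was not well above background on 5 of the 6 FSAP-deficient arrays, and read -3.45 on FSAP-deficient sham replicate 1. That array also stood apart on the second principal component (-70.8, the others -37.6 to 26.9). It had gene names for 8.53% of its spots, the rest being named here through the shared probes. Y-linked Ddx3y and Eif2s3y were well above background on FSAP-deficient sham replicate 1 and FSAP-deficient BDL replicates 1 and 2 only, the 3 arrays on which Xist was not. The groups are also unevenly spread over 4 slides. Slide 1 held the 3 WT sham arrays and WT BDL replicate 1, and slide 2 held WT BDL replicates 2 and 3 and FSAP-deficient sham replicate 2. Slide 3 held FSAP-deficient sham replicate 3 and the 3 FSAP-deficient BDL arrays, and slide 4 held FSAP-deficient sham replicate 1. Results among the 10 genes that change with these arrays or slides are given with and without them. Without the 3 arrays with Y-linked signal, FSAP-deficient BDL replicate 3 is the only ligated liver of its genotype. That fit has no replication there and is given by effect size.

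The first question is whether the gene set was higher after duct ligation in each genotype. In WT livers 8 of the 10 genes rose and 0 fell, where 32.9% of all genes tested changed, 15.2% rising and 17.7% falling. In FSAP-deficient livers 8 of the 10 rose and 0 fell, against 39.1% of all genes changed, 16.2% rising and 22.8% falling. Without overlap, 9 genes were higher after BDL in WT (24.2% of all genes were) and 8 in FSAP-deficient livers (18.9% of all genes). The 8 were Trem2, Gpnmb, Cd9, Lgals3, Itgax, Cd63, Cd68 and Slamf9 in both genotypes, and Fabp5 and Atp6v0d2 did not pass the test in either. Gpnmb passed the filter through ligated arrays alone, which favours a rise, so the counts and the median describe the genes that passed. The median change over the 10 genes was 2.31 in WT and 3.35 in FSAP-deficient livers, beside -0.03 and -0.16 over all genes tested. Without FSAP-deficient sham replicate 1 the counts were again 8 and 8.

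**Figure D1:**
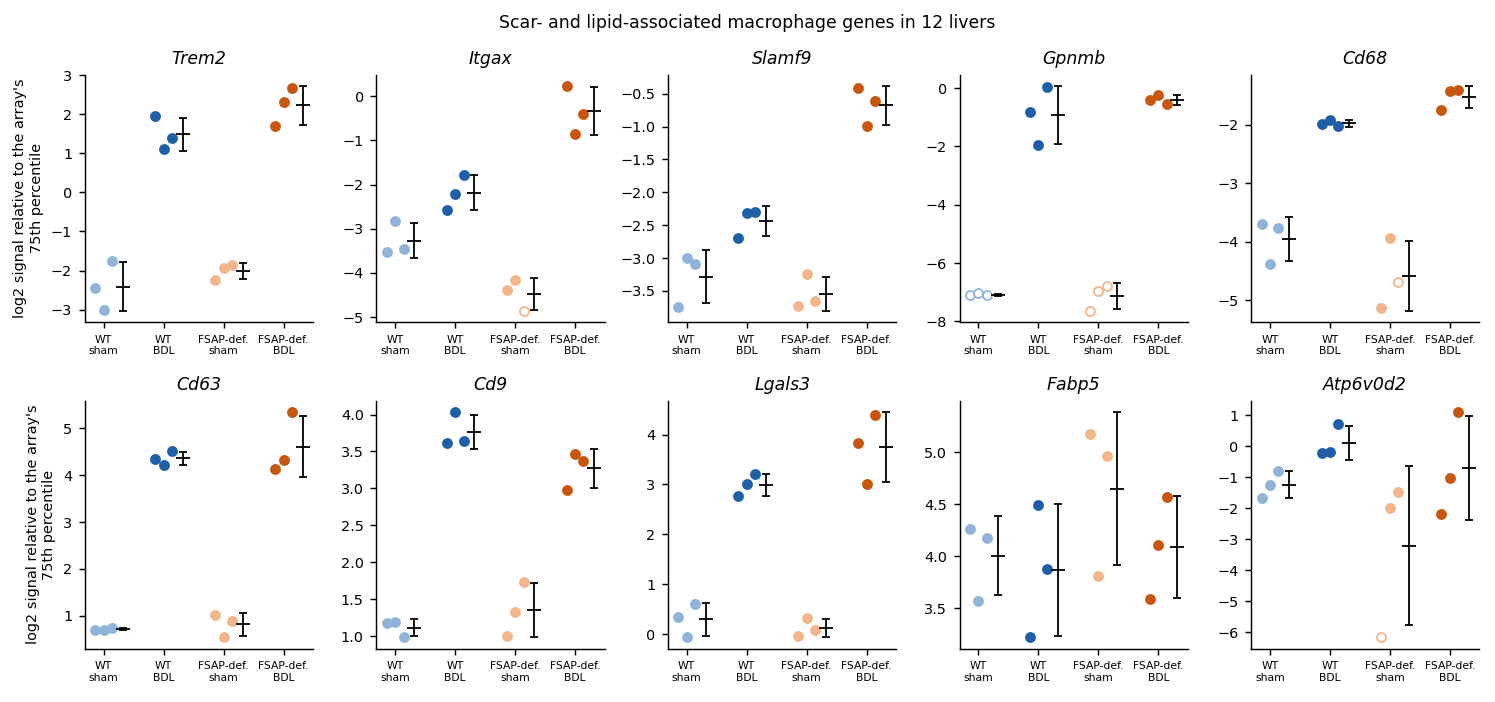
Level of each of the 10 genes on the 12 arrays, as log2 signal relative to the array's 75th percentile; each point is 1 mouse, open points were not well above background, and the black mark is the mean with 1 SD (n = 3). Every ligated liver lies above every sham liver of its genotype for Trem2, Itgax, Slamf9, Gpnmb, Cd68, Cd63, Cd9 and Lgals3, while Fabp5 overlaps.

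Among receptors and surface proteins, Trem2 (probe at chr17:48491537-48491596 on mm9) read -2.45, -3.01 and -1.76 in WT sham and 1.95, 1.11 and 1.38 in WT BDL. It read -2.25, -1.92 and -1.86 in FSAP-deficient sham and 1.69, 2.30 and 2.68 in FSAP-deficient BDL. All 6 ligated livers lay above all 6 sham livers. The change was 3.89 in WT (SE 0.35, limma adjusted p = 3.21e-05), 14.8-fold, and 4.23 in FSAP-deficient livers (SE 0.35, limma adjusted p = 1.97e-05), 18.8-fold.

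Itgax, the alpha chain of the integrin CD11c of dendritic cells and of many tissue macrophages (probe at chr7:135294052-135294111), read -3.54, -2.82 and -3.45 in WT sham and -2.57, -2.20 and -1.78 in WT BDL. It read -4.40, -4.15 and -4.86 in FSAP-deficient sham, the last not well above background, and 0.24, -0.86 and -0.39 in FSAP-deficient BDL. The 4 groups did not overlap, with FSAP-deficient sham lowest, then WT sham, then WT BDL, then FSAP-deficient BDL. The rise was 1.08 in WT (SE 0.32, limma adjusted p = 0.0251), 2.12-fold, and 4.13 in FSAP-deficient livers (SE 0.32, limma adjusted p = 1.59e-05), 17.5-fold. The call in WT was lost without WT sham replicate 1 (0.95, limma adjusted p = 0.0885) or replicate 3 (0.99, limma adjusted p = 0.0816), and without WT BDL replicate 2 (1.09, limma adjusted p = 0.0613) or replicate 3 (0.88, limma adjusted p = 0.0924). With the slide as a block it was 0.70 (limma adjusted p = 0.335).

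Slamf9, a SLAM-family surface receptor (probe at chr1:174408455-174408514), read -3.74, -3.01 and -3.10 in WT sham and -2.70, -2.31 and -2.30 in WT BDL. It read -3.73, -3.24 and -3.65 in FSAP-deficient sham and -0.41, -0.99 and -0.62 in FSAP-deficient BDL. The sham groups overlapped each other, WT BDL lay just above them, and the 3 FSAP-deficient BDL livers lay above all others. The rise was 0.85 in WT (SE 0.24, limma adjusted p = 0.02), 1.80-fold, and 2.87 in FSAP-deficient livers (SE 0.24, limma adjusted p = 2.30e-05), 7.30-fold. In WT it missed the threshold without WT sham replicate 1 (0.61, limma adjusted p = 0.0788), WT BDL replicate 2 (0.78, limma adjusted p = 0.0666) or WT BDL replicate 3 (0.78, limma adjusted p = 0.0642), and with the slide as a block (0.58, limma adjusted p = 0.283).

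Cd9, a tetraspanin of the plasma membrane (probe at chr6:125410387-125410446), read 1.17, 1.18 and 0.98 in WT sham and 3.62, 4.03 and 3.64 in WT BDL. It read 1.00, 1.33 and 1.73 in FSAP-deficient sham and 2.97, 3.47 and 3.38 in FSAP-deficient BDL. Ligated livers were high in both genotypes, with the 3 WT livers above the 3 FSAP-deficient ones. The rise was 6.27-fold in WT and 3.78-fold in FSAP-deficient livers.

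Of the lysosomal and endosomal members, Gpnmb, Cd63 and Cd68 rose in both genotypes. Gpnmb, a membrane glycoprotein induced in lysosome-loaded macrophages (probe at chr6:49006386-49006445), was not well above background in any of the 6 sham livers. After ligation it read -0.81, -1.95 and 0.02 in WT and -0.42, -0.23 and -0.56 in FSAP-deficient livers. Because the sham signal gives only a bound, Gpnmb was at least 16.3-fold higher after BDL in WT and at least 23.3-fold higher in FSAP-deficient livers. The limma adjusted p of 5.20e-06 and 4.89e-06 belongs to the fitted change against sham signal at background, not to the bound. For the bound, each sham array was given its Gpnmb signal or its dimmest signal that counted as well above background, whichever was brighter. These bounds hold for the processing used here. Over the alternatives described at the end, the fitted change was as low as 2.55 in WT and 3.05 in FSAP-deficient livers.

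Cd63, a tetraspanin of late endosomes and lysosomes (probe at chr10:128349813-128349872), read 0.70, 0.70 and 0.74 in WT sham and 4.34, 4.22 and 4.50 in WT BDL. It read 1.02, 0.55 and 0.89 in FSAP-deficient sham and 4.14, 4.32 and 5.34 in FSAP-deficient BDL. The 6 sham livers formed a tight low band and the 6 ligated livers a high one. The rise was 12.5-fold in WT (limma adjusted p = 1.25e-05) and 13.7-fold in FSAP-deficient livers (limma adjusted p = 1.02e-05).

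Cd68, a lysosomal glycoprotein used as a general macrophage marker (probe at chr11:69478979-69479038), read -3.70, -4.38 and -3.77 in WT sham and -1.99, -1.92 and -2.03 in WT BDL. It read -5.13, -3.94 and -4.69 in FSAP-deficient sham, the last not well above background, and -1.74, -1.43 and -1.40 in FSAP-deficient BDL. Every ligated liver was above every sham liver. The rise was 3.92-fold in WT (limma adjusted p = 0.000466) and 8.34-fold in FSAP-deficient livers (limma adjusted p = 3.33e-05).

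Lgals3, which encodes the secreted lectin galectin-3 (probe at chr14:48005414-48005473), read 0.34, -0.05 and 0.60 in WT sham and 2.77, 3.00 and 3.21 in WT BDL. It read -0.04, 0.33 and 0.07 in FSAP-deficient sham and 3.84, 3.01 and 4.40 in FSAP-deficient BDL. Sham and ligated livers did not overlap. The rise was 6.49-fold in WT (limma adjusted p = 0.000131) and 12.4-fold in FSAP-deficient livers (limma adjusted p = 2.37e-05).

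Fabp5, a cytosolic fatty acid carrier (probe at chr3:10016185-10016244), read 4.27, 3.57 and 4.18 in WT sham and 3.22, 4.49 and 3.88 in WT BDL. It read 5.18, 3.81 and 4.96 in FSAP-deficient sham and 3.59, 4.11 and 4.57 in FSAP-deficient BDL. The 4 groups overlapped throughout. The change was -0.14 in WT, with an interval from -1.07 to 0.79, and -0.56 in FSAP-deficient livers, with an interval from -1.49 to 0.37 (limma adjusted p = 0.829 and 0.325). Near-identical copies of Fabp5 exist in the genome, so its signal may not come from this gene alone.

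**Figure D2:**
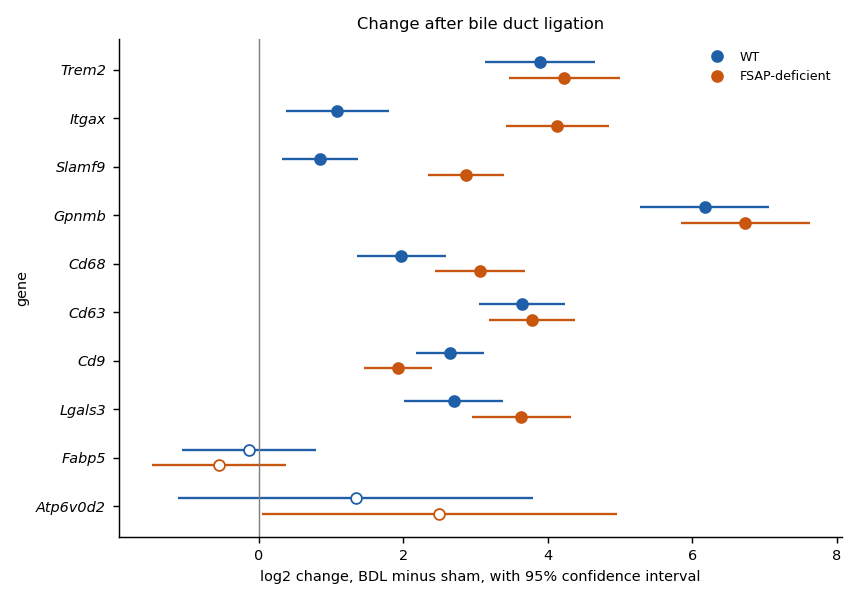
Change after BDL in log2 units (horizontal axis) for each gene, with the 95% confidence interval of the limma fit; filled points have an adjusted p under 0.05, blue is WT and orange FSAP-deficient. Itgax is at 1.08 in WT and 4.13 in FSAP-deficient livers, Slamf9 at 0.85 and 2.87, and the Gpnmb points are fitted values against sham signal at background.

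Atp6v0d2 encodes the d2 subunit of the vacuolar proton pump, an isoform restricted to a few cell types, macrophages and osteoclasts among them. Its brighter probe (chr4:19805367-19805426) read -1.67, -1.26 and -0.81 in WT sham and -0.23, -0.20 and 0.71 in WT BDL. It read -6.16, -1.98 and -1.47 in FSAP-deficient sham, the first not well above background, and -2.19, -1.02 and 1.09 in FSAP-deficient BDL. WT ligated livers lay above WT sham livers without overlap, and the FSAP-deficient groups overlapped. The change was 1.34 in WT (SE 1.11, limma adjusted p = 0.389) and 2.50 in FSAP-deficient livers (SE 1.11, limma adjusted p = 0.0996).

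The 3 arrays with Y-linked signal gave the lowest Atp6v0d2 levels of their groups. A limma term for that signal came to -3.57 for Atp6v0d2 (SE 0.48, adjusted p = 0.027), one of 26 genes called by it, or 0.133% of those tested, and no other of the 10 genes was called. With the term, the change after BDL was 1.34 in WT (limma adjusted p = 0.0421) and 3.69 in FSAP-deficient livers (limma adjusted p = 0.000309). Without those 3 arrays it was 1.34 in WT and 2.82 in FSAP-deficient livers, the latter resting on a single ligated liver. A second probe (chr4:19804304-19804363) read -2.85, -2.38 and -1.72 in WT sham and -2.19, -2.40 and -1.51 in WT BDL. It read -7.68, -3.13 and -2.71 in FSAP-deficient sham, the first not well above background, and -3.87, -2.94 and -1.60 in FSAP-deficient BDL. By this probe the WT groups overlapped, with a change of 0.28 (limma adjusted p = 0.871), and the change in FSAP-deficient livers was 1.70 (limma adjusted p = 0.246), so neither probe was called in either genotype. Whether the Y-linked signal itself or another property of these mice moves with Atp6v0d2 was not tested.

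**Figure D3:**
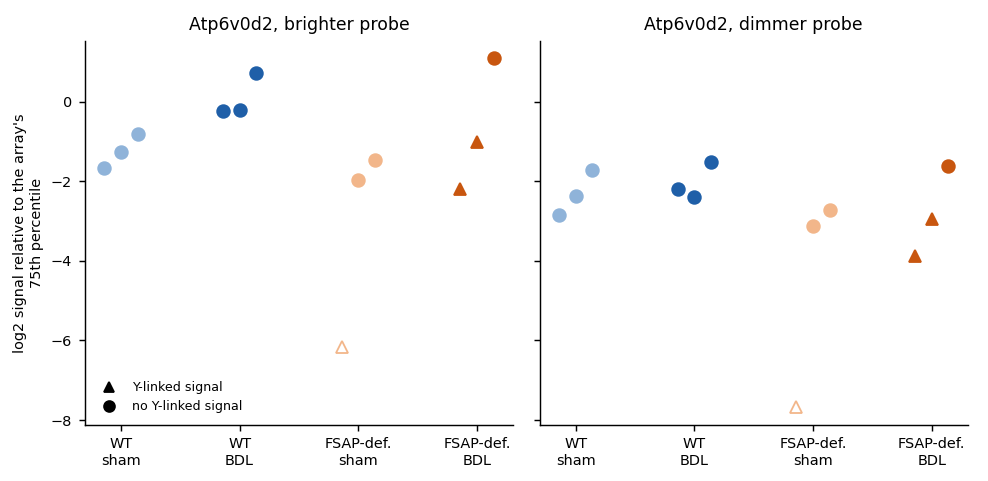
Level of Atp6v0d2 by its brighter probe (left) and its dimmer probe (right) in the 4 groups, as log2 signal relative to the array's 75th percentile; triangles are arrays with Y-linked signal, circles those without, and open symbols were not well above background. The 3 triangles are the lowest points of their groups on both probes.

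With the slide as a block, the WT change rests on WT BDL replicate 1 and the FSAP-deficient change on sham replicate 3, the arrays that share a slide with the other surgery. In that fit 6 genes were called in WT, Itgax and Slamf9 being lost, and 8 in FSAP-deficient livers. The medians were 2.21 and 3.42. Trem2 then rose by 4.36 in WT (limma adjusted p = 0.00275) and by 4.08 in FSAP-deficient livers (limma adjusted p = 0.00289).

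The second question is whether livers without FSAP differed from WT livers. After BDL 1 of the 10 genes was called, Slamf9, and it was higher, where 0.215% of all genes tested differed, 0.123% being higher and 0.0922% lower. Slamf9 averaged -0.68 ± 0.29 (SD, n = 3) in FSAP-deficient and -2.44 ± 0.23 (SD, n = 3) in WT ligated livers, a difference of 1.76 (SE 0.24, limma adjusted p = 0.0337), or 3.39-fold. Itgax averaged -0.34 ± 0.55 (SD, n = 3) and -2.18 ± 0.40 (SD, n = 3), a difference of 1.85 or 3.60-fold that missed the threshold (SE 0.32, limma adjusted p = 0.0535). Neither gene overlapped between the ligated groups. Cd68 was also higher in each FSAP-deficient ligated liver (0.45, limma adjusted p = 0.532) and Cd9 lower in each (-0.49, limma adjusted p = 0.369), and neither was called. Across all genes, 6.58% were higher and 9.08% lower without overlap.

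The Slamf9 difference was lost when any 1 of 6 arrays was left out. It was 1.63 without WT BDL replicate 1 (limma adjusted p = 0.126) or FSAP-deficient BDL replicate 1 (limma adjusted p = 0.0732), and 1.73 without FSAP-deficient BDL replicate 3 (limma adjusted p = 0.0622). It was 1.76, with an adjusted p from limma of 0.0558, 0.0789 and 0.0556, without WT sham replicate 2, WT sham replicate 3 or FSAP-deficient sham replicate 3. The Itgax difference was called without WT BDL replicate 3 (2.05, limma adjusted p = 0.0421) and without FSAP-deficient BDL replicate 2 (2.11, limma adjusted p = 0.0461). Of the ligated arrays, FSAP-deficient BDL replicates 1 and 2 carried Y-linked signal and no WT array did, so genotype is partly confounded with that signal here. With a term for it the Slamf9 difference was 1.88 (limma adjusted p = 0.0504). The ligated groups shared no slide, so genotype after BDL has no comparison within a slide. A fit with the slide as a block gave 2.04 for Slamf9 (limma adjusted p = 0.575) and 2.36 for Itgax (limma adjusted p = 0.615).

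The other 6 genes overlapped between the ligated groups. Their differences were 0.74 for Trem2 (interval -0.02 to 1.51), 0.76 for Lgals3 (0.07 to 1.44), 0.51 for Gpnmb (-0.38 to 1.40), 0.24 for Cd63 (-0.36 to 0.84), 0.23 for Fabp5 (-0.70 to 1.16) and -0.80 for Atp6v0d2 (-3.26 to 1.66), the intervals being unadjusted. None passed the limma test, with adjusted p from 0.34 to 0.876.

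In sham livers 0 of the 10 genes were called between genotypes, where 0.0154% of all genes were. Itgax was the one gene without overlap, lower by 1.20 in FSAP-deficient livers (a difference of -1.20, limma adjusted p = 0.294), and across all genes 7.26% were lower without overlap. The median difference over the 10 genes was -0.11. At an unadjusted p under 0.05, limma gave 1538 of all 19531 genes in this comparison.

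**Figure D4:**
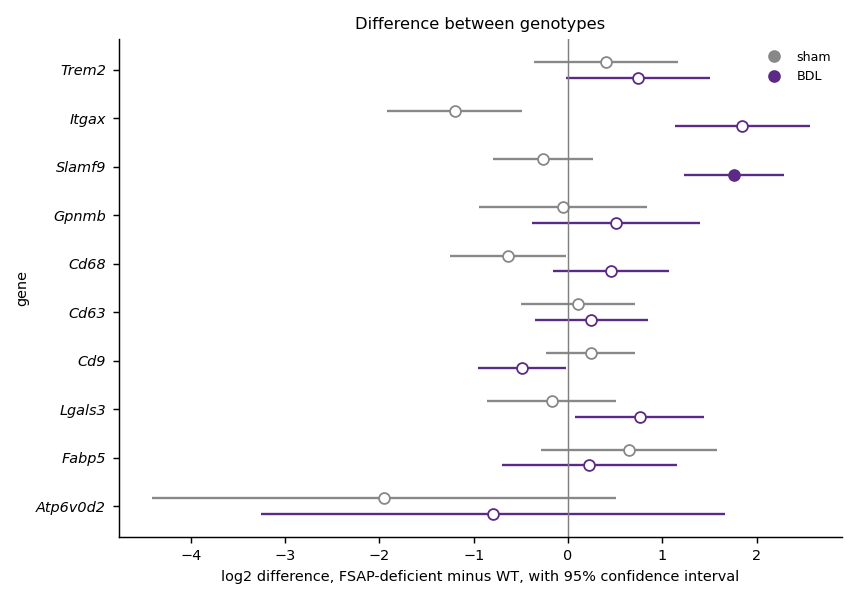
Difference between genotypes, FSAP-deficient minus WT, in log2 units with the 95% confidence interval of the limma fit, in sham livers (grey) and after BDL (purple); filled points have an adjusted p under 0.05. Slamf9 after BDL, at 1.76, is the single filled point, and Itgax lies at -1.20 in sham and 1.85 after BDL.

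The difference between the BDL changes of the genotypes, the interaction term of the same limma fit, called 0 of the 10 genes, against 0.0102% of all genes. It was 3.05 for Itgax (SE 0.46, limma adjusted p = 0.0937) and 2.02 for Slamf9 (SE 0.34, limma adjusted p = 0.096), so the larger rises of these genes without FSAP are not shown to differ from those in WT. For Cd68 it was 1.09 (limma adjusted p = 0.268), for Cd9 -0.73 (limma adjusted p = 0.325) and for Lgals3 0.93 (limma adjusted p = 0.384). The Itgax term was called without FSAP-deficient BDL replicate 2 (3.31, limma adjusted p = 0.0499).

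Genes that act with the 10 were read from lists chosen with earlier results of these data known, so their counts are a description. The counts stand beside 15.2% of all genes tested rising in WT and 16.2% in FSAP-deficient livers, and 17.7% and 22.8% falling. Of 8 genes of TREM2 signalling, 6 rose in WT and 7 in FSAP-deficient livers, and none fell. Tyrobp, the adaptor of TREM2, rose by 1.73 in WT and 2.62 in FSAP-deficient livers (limma adjusted p = 0.00093 and 6.96e-05), and Pik3cd, a kinase subunit downstream, by 1.02 and 2.32 (limma adjusted p = 0.00224 and 1.96e-05). Of 15 further scar- and lipid-associated macrophage genes, 14 were tested and 13 rose in each genotype, with medians of 1.39 in WT and 2.25 in FSAP-deficient livers. They included Spp1, which encodes osteopontin (3.81 and 5.38), Plaur, the urokinase receptor (4.04 and 4.32), and Ms4a7 (1.90 and 3.93). Mmp12 among them passed the filter on dim probes through ligated arrays alone, as did Olr1 of the lipid-handling list, so these counts describe the genes that passed. Clec7a, the beta-glucan receptor dectin-1, was the only one of the 14 called between ligated genotypes, at 1.76 higher without FSAP (limma adjusted p = 0.0407). It was named after its values were seen. Its limma adjusted p was 0.0904, 0.0795 and 0.0858 without WT sham replicate 1, 2 or 3, and 0.617 with the slide as a block. The call was also lost without WT BDL replicate 1 (limma adjusted p = 0.128) or 2 (0.0565). The same held without FSAP-deficient BDL replicate 1 (limma adjusted p = 0.1203) or 3 (0.0948), and without FSAP-deficient sham replicate 2 or 3. It was lost too with no filter on dim probes, only the groups compared, a random slide block, a replicate block or the Y-linked term. It was kept with median scaling, normexp background correction and array weights, among others.

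Of 16 lysosomal proteins, 8 rose in each genotype, with medians of 0.52 and 0.56. The cathepsins Ctss (1.39 and 2.88) and Ctsk (2.01 and 2.64) rose in both, and Lamp2, named after its values were seen, fell by 0.37 in FSAP-deficient livers, with the opposite sign in 2 of 26 alternatives. Of 17 other vacuolar ATPase subunits, 4 rose and 0 fell in WT and 2 rose and 2 fell in FSAP-deficient livers, with medians of 0.15 and -0.05, counts close to the shares over all genes. Atp6v0e (0.83 and 0.65) and Atp6v1b2 (0.63 and 0.57) rose in both. Atp6v0d1, the widely made counterpart of Atp6v0d2, fell by 0.49 in FSAP-deficient livers and Atp6v1f by 0.42, the latter with the opposite sign in 2 of 26 alternatives, and both were named after their values were seen. Of 14 genes of macrophage lipid handling, 5 rose and 2 fell in WT and 7 rose in FSAP-deficient livers. Lpl, the lipase that releases fatty acids from lipoproteins, rose by 4.81 and 4.14, and Plin2 and Nceh1, named after their values were seen, fell by 1.05 and 1.11 in WT. Of the 4 MiT/TFE transcription factors, which drive lysosomal genes, Tfec rose in both (1.40 and 2.21), Mitf in FSAP-deficient livers (0.85) and Tfe3 in WT (0.73). Mitf narrowly missed the threshold in WT (0.61, limma adjusted p = 0.0601), as did Tfe3 in FSAP-deficient livers (0.47, limma adjusted p = 0.0659). With median scaling the Mitf call in FSAP-deficient livers (limma adjusted p = 0.0599) and the Tfe3 call in WT (limma adjusted p = 0.0691) were lost. With the slide as a block, 3 genes of TREM2 signalling, 10 of the further scar- and lipid-associated genes, 5 lysosomal proteins, 3 lipid-handling genes, 1 vacuolar ATPase subunit and 0 MiT/TFE factors rose in WT, and 7, 13, 6, 4, 1 and 1 in FSAP-deficient livers. Tfec and Tfe3 were among those not called in WT there (limma adjusted p = 0.117 and 0.116). Without the 3 arrays with Y-linked signal, which leaves 1 FSAP-deficient ligated liver, the vacuolar ATPase median in that genotype was -0.14.

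**Figure D5:**
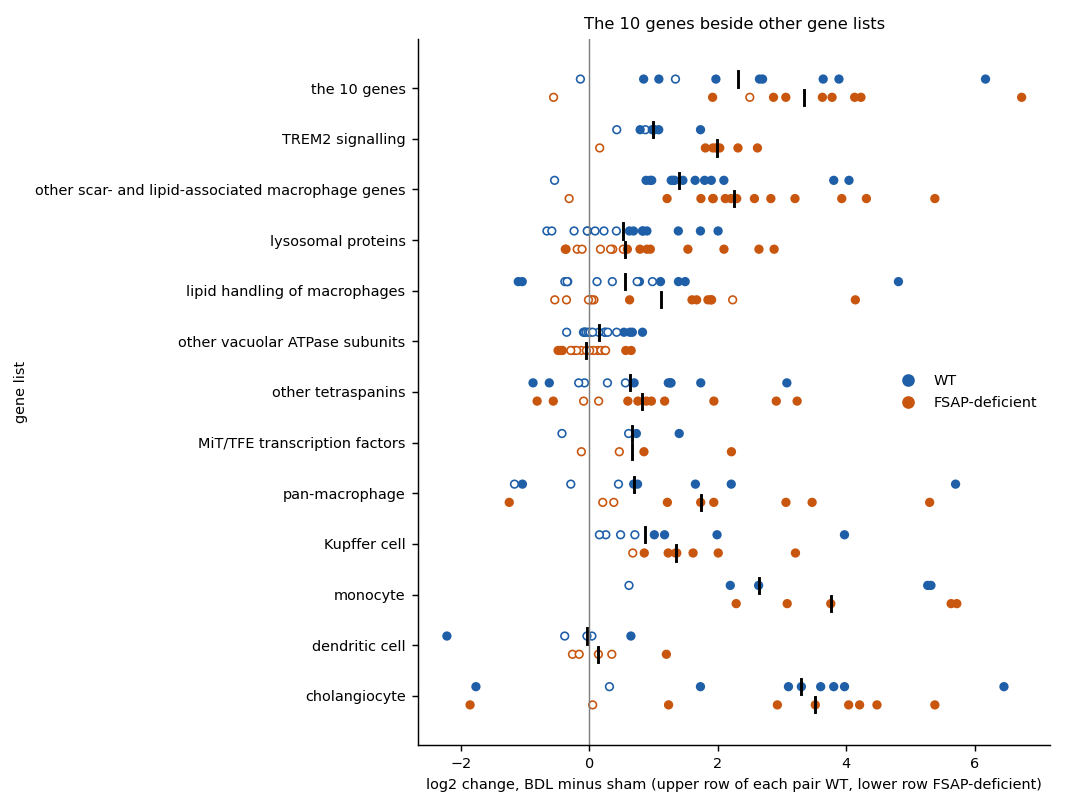
Change after BDL in log2 units for every tested gene of each list (rows; WT above, FSAP-deficient below), with filled points called by limma and black bars at the list median. The 10 genes have medians of 2.31 and 3.35, and the 17 other vacuolar ATPase subunits 0.15 and -0.05.

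Markers of the cells the liver could hold moved with the same surgery, and their part in the changes of the 10 genes was not tested. Of 9 pan-macrophage markers, 5 rose in WT and 6 in FSAP-deficient livers. Lyz2 rose by 2.21 and 3.47 and Fcgr1 by 1.65 and 3.06. The summed signal of the 9 markers, in multiples of the array's 75th percentile, was 24.6 to 30.6 in WT sham and 39.5 to 67.4 in WT BDL. It was 19.8 to 25.3 in FSAP-deficient sham and 54.1 to 69.7 in FSAP-deficient BDL. Adgre1, which encodes a surface receptor of macrophages, named after its values were seen, rose by 1.94 in FSAP-deficient livers (limma adjusted p = 0.000184). Its rise of 0.75 in WT (limma adjusted p = 0.0352) was called in 18 of 26 alternatives. It was lost without WT sham replicate 1 or 2 or WT BDL replicate 2 or 3, and was 0.42 with the slide as a block (limma adjusted p = 0.429).

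Of 5 monocyte markers, 4 rose in WT and 5 in FSAP-deficient livers, Ccr2 by 2.20 and 3.76, with sums of 2.37 to 2.65, 6.80 to 13.9, 1.67 to 2.41 and 8.60 to 19.9 in the same order of groups. Of 8 Kupffer cell markers, 4 and 6 rose, Marco by 3.97 and 3.21, and none fell. Of 8 dendritic cell markers, beside which Itgax must be read, 5 were tested. One rose and 1 fell in WT (Zbtb46 and Ccr7) and 1 rose in FSAP-deficient livers (Clec9a), and Xcr1, Cd209a and Itgae were not well above background on any array. The sum of the 8 dendritic cell markers ran from 38.2 to 63.2 over all arrays, with the Siglech probe at a mean level of 5.53 to 5.79 in the 4 groups. Every other marker of the list had group means of -2.59 or lower. The sum is thus nearly all Siglech and does not describe the list. Of 10 cholangiocyte markers, beside which Cd9, Cd63 and Lgals3 must be read, 9 were tested and 7 rose and 1 fell in each genotype (Cftr, named after its values were seen, was the one that fell, and Spp1 is also on the macrophage list). Elf3 and Epcam of this list and Cxcr2 of the neutrophil list passed the filter through ligated arrays alone. The sum of the 10 cholangiocyte markers was 1.75 to 2.20 in WT sham, 14.3 to 18.5 in WT BDL, 1.72 to 2.21 in FSAP-deficient sham and 12.0 to 44.2 in FSAP-deficient BDL. Spp1 made up the largest part of it after BDL, at mean levels of 3.26 in WT and 4.30 in FSAP-deficient livers. The next were Cldn7 at 0.63 in WT and Krt19 at 0.79 in FSAP-deficient livers. Of 12 other tetraspanins, relatives of Cd9 and Cd63, 6 rose and 2 fell in WT and 8 rose and 2 fell in FSAP-deficient livers. Cd53, a tetraspanin of white blood cells, rose by 1.74 and 2.91 and Tspan8, one of epithelia, by 3.08 and 3.24, while Cd82 and Tspan31, named after their values were seen, fell in both. Of 11 stellate cell and myofibroblast markers 5 rose in WT and 8 in FSAP-deficient livers, Col1a1 by 3.94 and 5.78, and of 9 neutrophil markers tested 4 and 5 rose. Of 10 hepatocyte markers 2 fell in WT, close to the 17.7% of all genes that fell, and 6 in FSAP-deficient livers.

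Of 6 B cell markers 3 were tested, and 3 fell in WT and 1 in FSAP-deficient livers. Of 8 markers of sinusoidal endothelium 2 rose and 1 fell in each genotype, with medians of -0.13 and -0.16. Of 9 T and NK cell markers 6 were tested, of which 0 rose and 2 fell in WT and 1 rose and 1 fell in FSAP-deficient livers. Cd3d, a chain of the T cell receptor complex, fell by 1.68 in WT and rose by 1.40 in FSAP-deficient livers (limma adjusted p = 0.0173 and 0.0334). Like Slamf9 and Itgax, Cd3d was higher without overlap in FSAP-deficient than in WT ligated livers, by 2.05 (limma adjusted p = 0.107). Cd3g, another such chain, was at least 4.01-fold higher there, being not well above background in any WT ligated liver. Its fitted difference, not the bound, had a limma adjusted p of 0.0742. Neither was called between genotypes, and their part in the Slamf9 and Itgax differences was not tested.

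With the slide as a block, 3 pan-macrophage, 4 monocyte, 3 Kupffer cell, 0 dendritic cell, 7 cholangiocyte, 2 tetraspanin, 1 stellate and 1 neutrophil gene rose in WT, against 6, 4, 4, 0, 7, 4, 8 and 2 in FSAP-deficient livers. The WT median of the stellate cell list was then 0.09, against 0.77 without the block. In the same fit 1 hepatocyte marker fell in each genotype, 1 B cell marker fell in WT and 2 in FSAP-deficient livers, and 0 T and NK cell markers were called in either, while of the endothelial markers 1 rose and 2 fell in WT and 1 rose and 0 fell in FSAP-deficient livers. Without FSAP-deficient sham replicate 1, 0 T and NK cell and 0 dendritic cell markers were called in FSAP-deficient livers. In the same fit 3 B cell markers fell there. Leaving out the 3 arrays with Y-linked signal leaves 1 FSAP-deficient ligated liver, so only list medians are given. In that genotype they were -0.055 for T and NK cell, -0.079 for dendritic cell, -0.761 for B cell and 1.503 for neutrophil markers.

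Across the 12 arrays, pairs of the 10 genes correlated at -0.39 to 0.98 (45 pairs, median Pearson r 0.83), a description in which the 4 groups and the scaling are shared. With each group's mean removed the median was 0.08, and the closest pair was Itgax with Slamf9, at 0.96 over all arrays and 0.77 within groups. The 5 other genes whose pattern over the 12 arrays was most like the mean of the 10, among 15915 candidates, were Slc25a24 (Pearson r 0.996), Vsir (0.994), Wtip (0.992), P2ry6 (0.992) and Lyz2 (0.992).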

How the data were processed

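Liver RNA (100 ng each, RNA integrity at least 7.2 per the labels) was hybridised to one-colour Agilent arrays. The deposited scanner files hold spot intensity, background-subtracted and detrended within an array by Agilent Feature Extraction 10.5.1.1, per the file headers. The authors' value table is on a log2 scale, with its normalization not given in the sources used here, and served as an alternative. Here the log2 processed signal was set relative to the 75th percentile of its array (475 to 1202) and averaged over spots of a probe, without 79 of 234372 values with outlier marks, and the brightest probe stood for a gene. Limma 3.58.1 in R 4.3.3 fitted 4 group means to 12 arrays, with two-sided moderated tests, Benjamini-Hochberg adjustment and a false discovery rate of 0.05. It was tested on simulated data. Between 54.5% and 62.3% of spots were well above background. With 3 mice per group, precision is limited by their number. Probe positions are mm9, and the exon under a probe is not given. Of 191 list genes, 189 were on the array. The 10 genes and all lists were chosen with earlier results of these data known. Beyond the 10, up to 3 genes per list with the widest called change after BDL were named, with the 5 genes of most similar pattern, Habp2, Y-linked genes and Xist. The result of 1 list gene is not reported here. Other scalings, backgrounds, filters, probe rules, blocks and samples were tried as alternatives.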

Additional observations from a re-analysis of the deposited data

Results flagged for a closer look

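Itgax stood out among the 10 genes because the genotypes did not overlap in either surgery and their order was opposite in the 2. All 3 FSAP-deficient sham livers were below all 3 WT sham livers, and all 3 FSAP-deficient ligated livers were above all 3 WT ligated livers. The pattern is not particular to Itgax. Pik3cd (-0.54 in sham and 0.76 after BDL), Hcst (-0.43 and 0.81), Cd3d (-1.03 and 2.05) and Cd3g (-1.19 and 3.14) showed it too. The share of all genes with this pattern was not counted. The interaction of genotype and BDL, which tests that contrast, was 3.05 on the log2 scale (SE 0.46) and missed the threshold (limma adjusted p = 0.0937).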

How the results depend on the processing

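Of the 10 genes, 6 were refitted under 26 alternatives, 25 for the interaction, and Gpnmb, Itgax, Cd68 and Atp6v0d2 under 25 and 24, since the filter on all 12 arrays left them out. No called change reversed its sign. Of the 256 values after BDL in WT, 242 kept their side of the threshold, 11 lost the call and 3 gained it, and in FSAP-deficient livers 252 kept it and 4 gained it. For genotype after BDL 239 of 256 kept it, 14 lost it and 3 gained it, in sham all 256 kept it, and for the interaction 241 of 246 kept it and 5 gained it.

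With genes well above background on all 12 arrays, 6 of the 10 genes were tested and 5 were called after BDL in each genotype, fewer because fewer were tested. Genotype after BDL called 1 gene, but 2 with normexp background correction. It called 0 with no filter on dim probes, with only the groups compared, or with the slide as a fixed or random block. It also called 0 with the replicate number as a block, a term for Y-linked signal, or array weights. The interaction called 0 genes, but 2 with the Y-linked term (Itgax and Slamf9), and 1 (Itgax) with array weights. Without the arrays with Y-linked signal, which leaves 1 FSAP-deficient ligated liver, the Slamf9 difference after BDL was 1.82 and the Itgax interaction 3.03. The cause was not tested. Leaving out 1 array at a time gave 6 to 8 called genes after BDL in WT, 8 to 9 in FSAP-deficient livers, 0 to 2 for genotype after BDL, 0 to 0 in sham and 0 to 1 for the interaction. Normexp took the Itgax and Slamf9 rises in WT to 0.57 and 0.47 (limma adjusted p = 0.0705 and 0.0681).

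No pairing by replicate number was seen in the correlations between arrays. Of 18 same-number pairs 2 correlated above 0.1, from -0.20 to 0.19, beside 5 of 36 different-number pairs, from -0.21 to 0.22. Of the 12 arrays, 4 correlated best with their own number. With 3 mice per group this cannot show that the numbers carry no pairing. With the replicate block, 8 genes were called after BDL in WT and 9 in FSAP-deficient livers, Atp6v0d2 being added (2.50, limma adjusted p = 0.0331), and 0 for genotype after BDL.

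Scaling to the median moved the median change of all genes from -0.03 to -0.19 in WT and from -0.16 to -0.36 in FSAP-deficient livers. The share of called genes that were higher went from 46.2% to 33.4% in WT, from 57.1% to 41.3% for genotype after BDL, and from 41.5% to 28.7% after BDL without FSAP. The 10 genes had 8, 8 and 1 calls there. Over the alternatives, 3 to 7 genes of TREM2 signalling rose in WT and 7 to 8 in FSAP-deficient livers, and 10 to 13 and 11 to 13 of the further scar- and lipid-associated genes. Signal near background limits Gpnmb in sham livers and Itgax, Cd68 and Atp6v0d2 on 1 FSAP-deficient sham array each. The size of such changes varied with the processing. Over the alternatives the Gpnmb rise ran from 2.55 to 6.69 in WT and from 3.05 to 6.90 in FSAP-deficient livers. The Itgax rise in FSAP-deficient livers ran from 2.38 to 4.52, and its interaction from 1.81 to 3.83.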
